A study of Mus musculus with 10 samples.

Results

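Cytochrome P450 genes encode heme enzymes that insert oxygen into fatty acids, sterols, vitamins and foreign compounds. They were taken as every gene of the deposited table whose mouse symbol starts with Cyp and a digit, leaving out symbols that end in -ps, which mark pseudogenes. This gave 100 of the 22053 listed identifiers. RNA-seq values were available for kidney glomeruli of mice in 2 groups of 5 libraries each, one wild type for Col4a3 and one carrying the missense change p.G799R. Col4a3 encodes a type IV collagen chain of the glomerular basement membrane. The sources used here do not state zygosity, strain, age, sex, any agent given to these mice or how the glomeruli were prepared. The series title names tauroursodeoxycholic acid, and no sample labelled as treated was analysed here. Separate animals are not stated for the libraries either, so each p-value reflects spread between libraries that may be technical.

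P450 enzymes take electrons from a partner, cytochrome P450 reductase in the endoplasmic reticulum or ferredoxin in mitochondria, and genes of a subfamily often lie side by side on a chromosome. In the kidney, the cells of the proximal tubule are known as the main site of P450 enzymes that act on fatty acids, arachidonic acid, vitamin D and foreign compounds. The glomerulus is a tuft of podocytes, endothelial cells and mesangial cells, and a glomerular preparation can hold tubule pieces. In such bulk samples fewer cells of a type and less RNA per cell cannot be told apart.

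The unit is FPKM, fragments scaled for transcript length and library total, as deposited. FPKM sums ran from 320720 to 340875 per library. Absolute depth is unknown, and relative depth estimated from the steps of low values ran from 0.862 to 1.19 times that of wild-type library 1. The 34 proximal tubule markers were all lower in G799R. Their summed level was 8841 to 16383 FPKM in wild type and 1083 to 2807 FPKM in G799R, and none was at 0 in any library. Of 29 distal tubule and collecting duct markers 28 were lower, with sums of 2038 to 3561 FPKM against 248 to 715 FPKM. Of 30 podocyte markers 29 were higher, with sums of 4911 to 5887 FPKM against 8291 to 10705 FPKM. Of 30 endothelial markers 25, of 24 mesangial and smooth muscle markers 16 and of 29 macrophage and myeloid markers 20 were higher. No marker of these lists was at 0 in any library, and their part in the P450 differences was not tested except where a value relative to them is given. The Y-linked gene Ddx3y stood at 15.1 to 36.5 FPKM, above 0 in every library.

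P450 genes took a smaller share of the transcriptome in G799R libraries. Their summed level was 1979, 2828, 2082, 3364 and 1950 FPKM in wild-type libraries 1 to 5 and 725, 674, 784, 553 and 544 FPKM in G799R libraries 1 to 5. That was 0.601% to 1.02% of all FPKM in wild type and 0.160% to 0.232% in G799R, so the groups did not overlap. The families 1 to 3, known for acting on drugs and other foreign compounds, summed to 595 to 1366 FPKM in wild type and 103 to 186 FPKM in G799R. Here and below this group leaves out the Cyp2c, Cyp2j, Cyp2r, Cyp2s, Cyp2u, Cyp2ab and Cyp2w genes of family 2, which are given in other groups. The Cyp4 family, the fatty acid omega hydroxylases, summed to 810 to 1291 FPKM against 258 to 402 FPKM. Cyp2c and Cyp2j genes, the subfamilies of arachidonic acid epoxygenases, summed to 337 to 601 FPKM against 48.1 to 91.9 FPKM. Wild-type libraries 2 and 4 had the largest P450 shares, and the same 2 libraries had the highest proximal tubule sums among wild type.

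**Figure D1:**
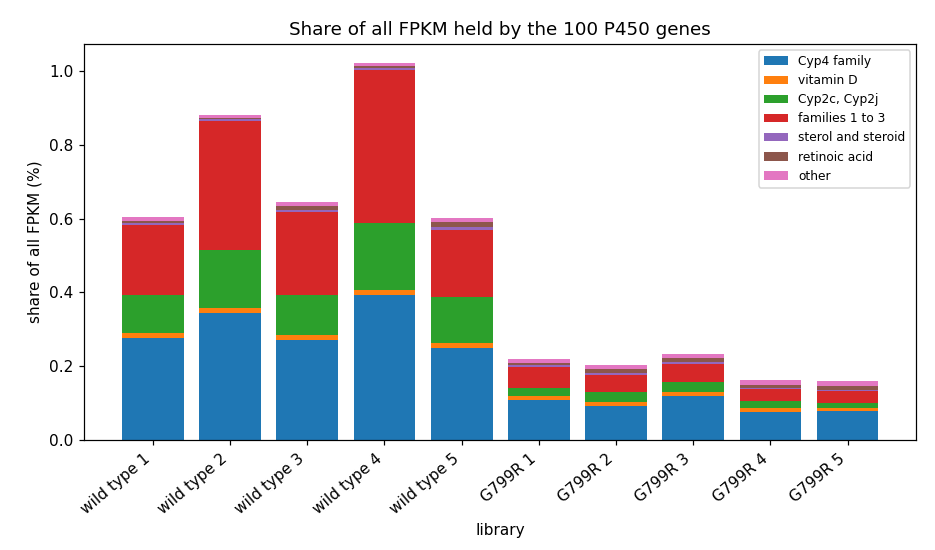
Share of all FPKM (percent, y axis) held by the 100 P450 genes in each of the 10 libraries (x axis), stacked by role. The 5 wild-type bars end at 0.601% to 1.02% and the 5 G799R bars at 0.160% to 0.232%.

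Few P450 genes made up most of the signal. Of the 100 genes, 33 were listed at 0 in every library and 29 more were above 0 somewhere but stayed under a mean of 0.5 FPKM over the 10 libraries, the limit for testing. The remaining 38 were tested. Among them Cyp4a14, Cyp2c23 and Cyp27b1 reached the limit only through wild type, with G799R means of 0.417, 0.151 and 0.225 FPKM. They count among the genes given below as lower. A mean of at least 1 FPKM was reached by 33 genes, of at least 10 FPKM by 18 and of at least 100 FPKM by 3, which were Cyp4b1, Cyp2e1 and Cyp2j5. Between 43 and 56 P450 genes were above 0 in a library.

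Of the 38 tested P450 genes, 22 were lower in G799R and 6 were higher by limma on log2(FPKM + 1), with Benjamini-Hochberg adjustment over all 13117 tested genes and a threshold of 0.05. Among all tested genes 19.3% were lower and 40.5% higher, and 59.8% were called in either direction, while among the P450 genes 57.9% were lower and 15.8% higher. The median log2 difference, G799R minus wild type, was −0.81 over the tested P450 genes and 0.17 over all tested genes. The values of the 2 groups did not overlap for 19 lower and 3 higher P450 genes, against 15.7% and 26.1% of all tested genes. A log2 difference on this scale understates the change of low genes, so folds are given as ratios of mean FPKM. With a limit of 2 FPKM for testing, 20 of 31 tested P450 genes were lower and 6 higher by limma. Of all 11334 genes then tested, 2160 were lower and 4879 higher. Scaling moved the rises. With the summary level of glomerular markers set equal in every library, 27 of the 38 P450 genes were lower and 0 higher by limma. Of all 13117 tested genes 8533 were then lower and 530 higher, so most genes were lower under this scaling. Of the 38 P450 genes 28 had an unadjusted p under 0.05, and the median of all genes moved to −0.43. With the tubule score, the mean log2(FPKM + 1) of the proximal and distal tubule markers, as a covariate, limma called 0 P450 genes and 0 of all tested genes. An unadjusted p under 0.05 was then reached by 4 P450 genes and 711 of all genes, and the median SE of all genes rose from 0.11 to 0.43.

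**Figure D2:**
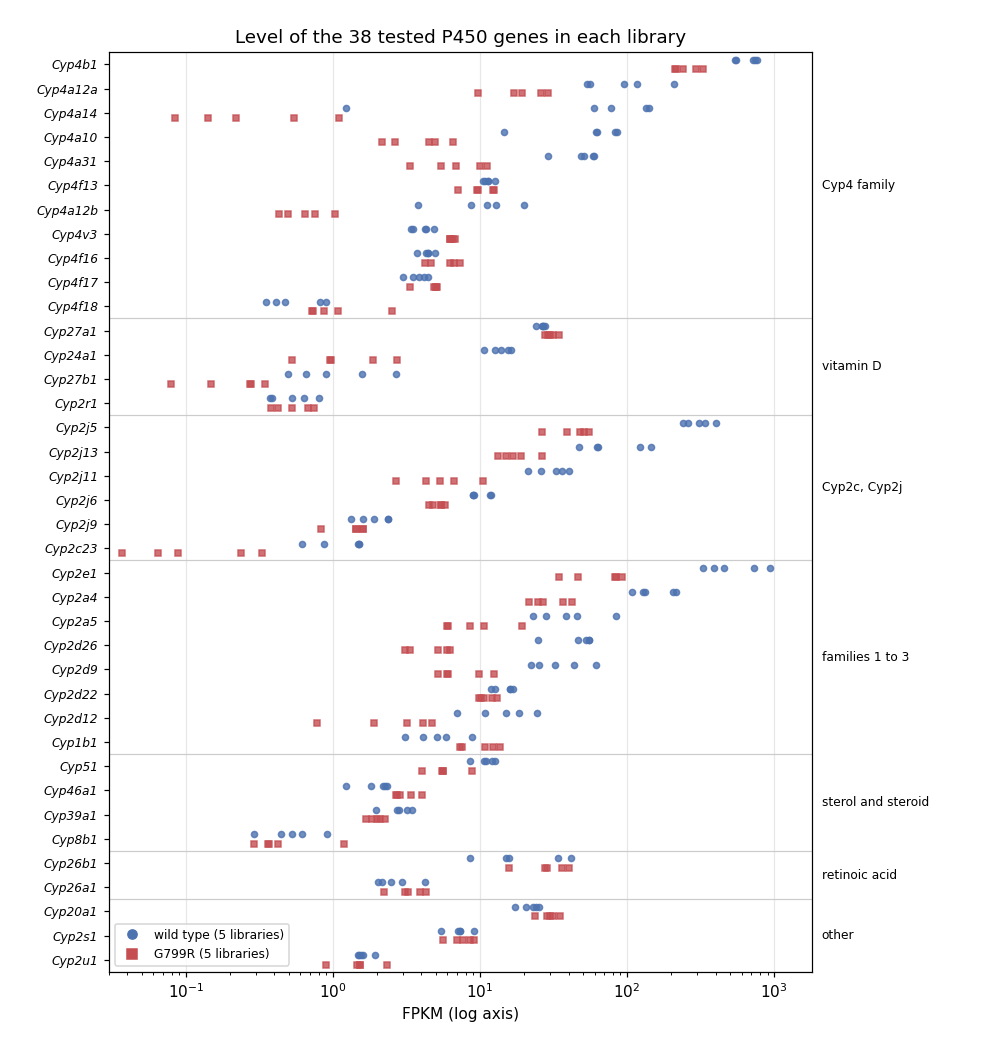
FPKM (x axis, log scale) of the 38 tested P450 genes (y axis) in each library, blue circles for the 5 wild-type and red squares for the 5 G799R libraries, grouped by role. The groups stand apart for 22 genes, 19 lower and 3 higher in G799R.

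The omega hydroxylases of the Cyp4 family, which oxidise the far end of fatty acid chains, split by subfamily. All 5 tested Cyp4a genes and Cyp4b1 fell, while of 4 tested Cyp4f genes none fell and 1 rose. Of the 20 genes of the family 11 were tested, with 6 lower, 2 higher and 3 not called. The median log2 difference of these 11 was −1.37.

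Cyp4b1 (ENSMUSG00000028713), an enzyme that hydroxylates fatty acids and activates some foreign compounds, was the most abundant P450 gene. It stood at 719, 736, 548, 764 and 541 FPKM in wild-type libraries 1 to 5. In G799R libraries 1 to 5 it stood at 293, 240, 328, 211 and 213 FPKM. Every G799R library lay below every wild-type library, by a smaller fold than that of any tested Cyp4a gene. The means were 662 ± 108 and 257 ± 51.5 FPKM (SD, n = 5 each), 2.58-fold lower, with a log2 difference of −1.37 ± 0.15 (SE) and a limma adjusted p of 2.5e-05.

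Cyp4a14 (ENSMUSG00000028715), a fatty acid hydroxylase known as a target of the nuclear receptor PPAR alpha, showed the most negative log2 difference of the 38 genes. It was at 1.23, 134, 77.7, 140 and 59.2 FPKM in wild-type libraries 1 to 5 and at 0.142, 0.085, 0.541, 0.219 and 1.10 FPKM in G799R libraries 1 to 5. Wild-type library 1 stood far below the other 4 wild-type libraries and just above G799R library 5, so the groups did not overlap only by a narrow gap. The log2 difference was −5.06 ± 0.95 (SE; limma adjusted p = 0.00093), and −6.15 without wild-type library 1 (limma adjusted p = 5.7e-07). Cyp4a10, another PPAR alpha target, was at 14.6, 85.2, 62.5, 82.3 and 61.8 FPKM in wild type and at 2.64, 4.51, 4.95, 2.15 and 6.59 FPKM in G799R. Again wild-type library 1 was the lowest of its group, and the groups stood apart. Cyp4a10 was 14.7-fold lower, with a log2 difference of −3.45 ± 0.43 (SE; limma adjusted p = 6.1e-05).

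The low value of wild-type library 1 was shared by some but not all Cyp4a genes. Cyp4a31 was at 29.0 FPKM there and at 48.7 to 59.7 FPKM in the other 4 wild-type libraries. Cyp4a12b was at 3.80 FPKM in that library and at 8.62 to 19.9 FPKM in the others. Cyp4a12a, the enzyme that makes a vasoactive hydroxylated arachidonic acid and is known for its higher level in males, was at 116, 53.2, 94.6, 209 and 55.9 FPKM in wild type, where library 1 was the second highest. In G799R it was at 19.1, 29.1, 25.8, 17.0 and 9.75 FPKM, below every wild-type library. The proximal tubule score, the mean log2(FPKM + 1) of the 34 markers, was 6.61 in wild-type library 1 and 6.70 to 7.38 in the other 4, and the marker Slc34a1 stood at 603 FPKM there against 651 to 1040 FPKM. Of the 27 tested PPAR alpha targets outside the P450 genes, 15 were lowest of the wild-type group in library 1 and 3 were highest there, and of the 34 proximal tubule markers 25 were lowest there and 0 highest. Acot1 and Acot3, chosen after their values were seen, stood at 2.99 FPKM against 6.63 to 8.54 FPKM and at 2.31 FPKM against 5.73 to 6.95 FPKM. Angptl4, a secreted lipase inhibitor and the opposite case, stood at 9.37 FPKM there against 3.04 to 5.27 FPKM. The part of any of these values in the others was not tested.

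**Figure D3:**
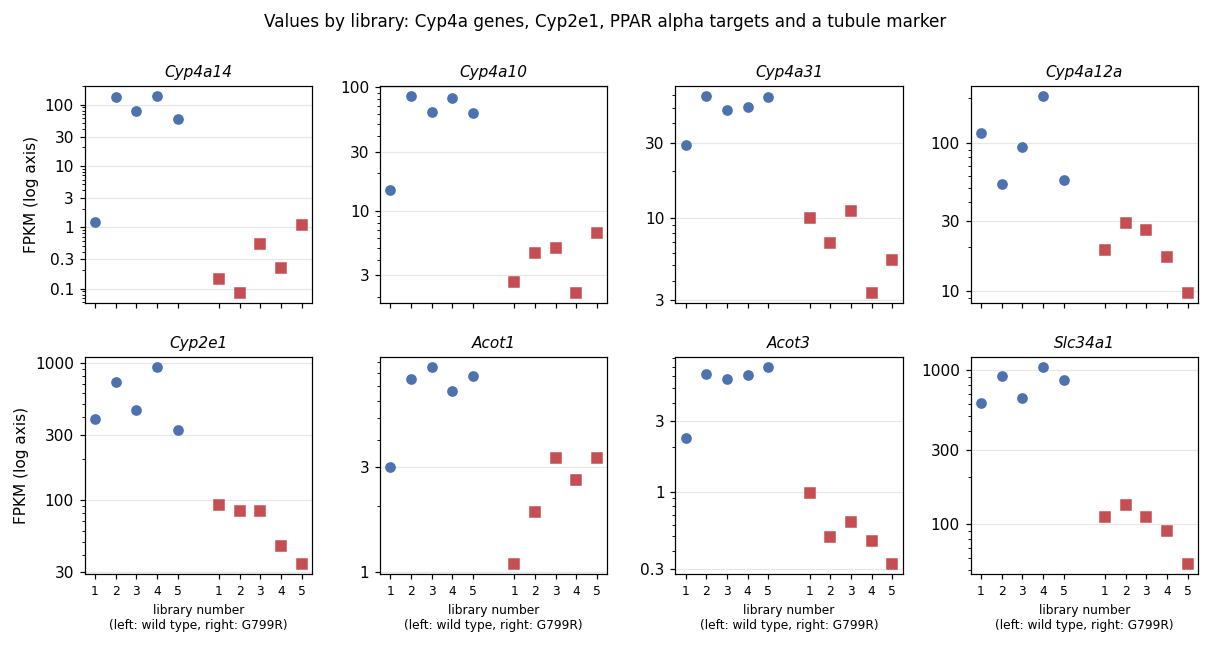
FPKM (y axes, log scale, each panel its own range) by library number (x axis) for Cyp4a14, Cyp4a10, Cyp4a31, Cyp4a12a, Cyp2e1, the PPAR alpha targets Acot1 and Acot3 and the proximal tubule marker Slc34a1, wild type on the left and G799R on the right. Wild-type library 1 is the lowest of its group for Cyp4a14 at 1.23 FPKM, Cyp4a10 at 14.6 FPKM, Cyp4a31, Acot1 and Acot3, and also for Slc34a1, but not for Cyp4a12a or Cyp2e1.

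Cyp4a31 was 6.71-fold lower, Cyp4a12a 5.24-fold lower and Cyp4a12b 16.8-fold lower in G799R, with log2 differences of −2.64 ± 0.28, −2.23 ± 0.37 and −2.73 ± 0.31 (SE). Their limma adjusted p-values were 1.8e-05, 0.00045 and 3.1e-05, and none of the 3 overlapped between groups. Parts of these genes are near identical: 35.8% of the 100-base windows of Cyp4a12a transcripts also occur in Cyp4a12b. The share found in any other gene was 12.2% for Cyp4a10 and 7.33% for Cyp4a31, which both share most with Cyp4a32, and 0 for Cyp4a14. Single values of Cyp4a12a, Cyp4a12b, Cyp4a10 and Cyp4a31 are therefore uncertain to the degree that reads were split between copies. Cyp4a32 was at 0.040 to 0.475 FPKM in wild type and listed at 0 in all G799R libraries, and Cyp4a29 and Cyp4a30b were listed at 0 in all 10.

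These genes form 1 chromosomal block. It holds 10 P450 genes, from Cyp4x1 to Cyp4b1, and lies on chromosome 4 between 115106323 and 115647723 (GENCODE M21, mouse build GRCm38, looked up by identifier since the sources used here do not state the authors' build). All 6 tested genes of that block fell. The Cyp4f genes form another block of 8 on chromosome 17, between 32452723 and 32947402, where 3 were tested, 0 fell and 1 rose. Cyp4f enzymes are known for breaking down leukotrienes. Cyp4f13 was at 11.4 ± 0.851 and 10.2 ± 2.22 FPKM (adjusted p = 0.30 by limma) and Cyp4f17 at 3.78 ± 0.563 and 4.66 ± 0.753 FPKM (adjusted p = 0.11 by limma; SD, n = 5 each). Cyp4f18, which lies elsewhere on chromosome 8 and overlaps exons of Zfp961 on the other strand, was at 0.353 to 0.898 FPKM in wild type and 0.722 to 2.53 FPKM in G799R and was not called. Cyp4f16 rose from 4.36 ± 0.431 to 5.81 ± 1.31 FPKM (limma adjusted p = 0.0499), but the groups overlapped. Its call did not survive the removal of any 1 wild-type library or of G799R library 1, 2 or 3 (limma adjusted p from 0.0507 to 0.12), and glomerular marker scaling turned its log2 difference from 0.33 to −0.25. The call was also lost with pseudocounts of 0.1 and 0.5, without a filter, under median-of-ratios scaling and with the replicate number as a block.

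Cyp4v3, the mouse counterpart of the fatty acid hydroxylase gene mutated in the human eye disease Bietti crystalline dystrophy, went the other way from the Cyp4a genes. It was at 4.24, 3.51, 4.90, 3.40 and 4.27 FPKM in wild type and at 6.30, 6.71, 6.51, 6.24 and 6.25 FPKM in G799R. All G799R libraries lay above all wild-type libraries and within a narrow range. The rise was 1.58-fold, with a log2 difference of 0.56 ± 0.09 (SE; limma adjusted p = 0.00040), which became −0.021 under glomerular marker scaling. Cyp4v3 shares exon bases with the predicted gene Gm45753 on the same strand, so its reads may be split.

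The epoxygenase subfamilies Cyp2j and Cyp2c, whose enzymes turn arachidonic acid into epoxides that act on vessels and salt transport, were represented almost wholly by Cyp2j. Of 23 genes 6 were tested, of which 5 fell and 1 was not called, with a median log2 difference of −1.52. Cyp2j5 (ENSMUSG00000052520), an epoxygenase known for its abundance in mouse kidney, stood at 241, 336, 257, 399 and 309 FPKM in wild type and at 48.1, 50.8, 54.9, 39.0 and 26.5 FPKM in G799R. The groups were far apart. Cyp2j5 was 7.03-fold lower, at means of 308 ± 63.7 and 43.9 ± 11.3 FPKM (SD, n = 5 each), with a log2 difference of −2.81 ± 0.20 (SE; limma adjusted p = 2.1e-06).

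Of the other Cyp2j genes 3 fell and 1 was not called. Cyp2j13 was at 63.8, 123, 62.2, 145 and 47.1 FPKM in wild type and at 13.1 to 26.3 FPKM in G799R, 4.89-fold lower. Cyp2j11 was 5.30-fold lower, at 31.2 ± 7.69 and 5.89 ± 2.93 FPKM (SD, n = 5 each). Cyp2j6 was only 1.95-fold lower, at 8.90 to 11.9 FPKM in wild type and 4.47 to 5.78 FPKM in G799R, still without overlap. Cyp2j9, known from mouse brain, was at 1.92 ± 0.469 and 1.38 ± 0.319 FPKM, with overlapping groups and an adjusted p of 0.092 by limma. It was called lower without wild-type library 1 (log2 difference −0.37, limma adjusted p = 0.034) and under median-of-ratios and glomerular marker scaling. The 5 tested genes belong to a block of 8 Cyp2j genes on chromosome 4 between 96027534 and 96664154. In that block Cyp2j7 was at 0.068 to 0.363 FPKM in wild type and listed at 0 in G799R.

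Of 15 Cyp2c genes only Cyp2c23, known as an arachidonic acid epoxygenase of the mouse kidney, reached the limit for testing. It was at 0.619, 1.51, 0.870, 1.48 and 1.50 FPKM in wild type and at 0.236, 0.331, 0.037, 0.088 and 0.065 FPKM in G799R. All G799R libraries lay below all wild-type libraries. The ratio of means was 7.90-fold lower, while the log2 difference at this low level was −0.92 ± 0.15 (SE; limma adjusted p = 0.00039). The other 14 Cyp2c genes lie together on chromosome 19 between 39007019 and 40187333. Of these 8 were listed at 0 in every library, and the highest mean among them was 0.103 FPKM, for Cyp2c69.

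Enzymes of the families 1 to 3 act on drugs, toxins and steroids. Without the Cyp2 genes given in other groups, 8 of 33 genes were tested. Of these 7 fell and Cyp1b1 rose, with a median log2 difference of −2.05. The Cyp3a and Cyp2b subfamilies were at or near 0. None of the 9 Cyp3a and 5 Cyp2b genes reached the limit for testing, and 6 and 4 of them were listed at 0 in every library. Cyp1a1, known for its induction by the aryl hydrocarbon receptor, was at 0.117 to 0.966 FPKM in wild type and 0.054 to 0.271 FPKM in G799R.

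Cyp2e1 (ENSMUSG00000025479), which oxidises ethanol and other small molecules, was the second most abundant P450 gene. It was at 392, 727, 453, 929 and 326 FPKM in wild type. In G799R it was at 92.3, 83.8, 83.0, 46.6 and 34.2 FPKM. The wild-type values spread widely, but the lowest lay above every G799R library. Cyp2e1 was 8.32-fold lower, with a log2 difference of −3.02 ± 0.34 (SE; limma adjusted p = 2.6e-05).

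Cyp2a4 and Cyp2a5, near-identical genes whose enzymes hydroxylate testosterone and coumarin, fell together. Cyp2a4 was at 107, 216, 129, 206 and 131 FPKM in wild type and at 36.7, 26.9, 42.2, 21.4 and 24.8 FPKM in G799R, 5.20-fold lower (limma adjusted p = 1.1e-05). Cyp2a5 was at 38.3, 45.8, 23.0, 83.7 and 28.0 FPKM against 19.4, 6.01, 8.57, 6.04 and 10.7 FPKM, 4.31-fold lower (limma adjusted p = 0.00076). Neither gene overlapped between groups. Of the 100-base windows of Cyp2a4, 11.2% also occur in Cyp2a5, so their single values are uncertain.

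Of 8 Cyp2d genes 4 were tested, and all 4 fell. Cyp2d26 stood at 24.8, 55.4, 54.7, 52.7 and 46.7 FPKM in wild type and at 5.19, 5.92, 3.34, 6.27 and 3.08 FPKM in G799R, with wild-type library 1 apart from the other 4. It was 9.84-fold lower, with a log2 difference of −3.04 ± 0.24 (SE; limma adjusted p = 3.0e-06). Cyp2d9, a testosterone hydroxylase known for its higher level in males, was at 22.1 to 61.0 FPKM in wild type and 5.20 to 12.4 FPKM in G799R, 4.68-fold lower. Cyp2d12, at 15.1 ± 6.72 and 2.94 ± 1.61 FPKM, was 5.15-fold lower. Cyp2d22 fell by less, from 14.6 ± 2.17 to 11.2 ± 1.38 FPKM (SD, n = 5 each; log2 difference −0.36, limma adjusted p = 0.016), with overlapping groups. All 8 lie within chromosome 15 between 82370527 and 82794294, so the log2 differences within 1 block ran from −3.04 to −0.36.

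Promoters are shown for 4 abundant genes of these subfamilies that fell, the near-identical pair Cyp2a4 and Cyp2a5 to show how alike they are, and Cyp2e1 and Cyp2d9 for comparison. They were not taken by rank: Cyp2d26, with a mean of 25.8 FPKM against 22.4 FPKM for Cyp2d9, is not shown. Each is 300 bases of RefSeq sequence on build GRCm38.p6, from 250 bases before the transcription start to 50 after it, on the plus strand at chr7:140763569-140763868 (Cyp2e1), chr7:26306942-26307241 (Cyp2a4), chr7:26835089-26835388 (Cyp2a5) and chr15:82452127-82452426 (Cyp2d9). Capitals mark the letters TATAAA, the TATA box motif, on either strand (TTTATA where on the minus strand), and AGGNCANAGGNCA, a direct repeat spaced by 1 base of the kind that HNF4A and PPAR alpha are known to bind.
Cyp2e1: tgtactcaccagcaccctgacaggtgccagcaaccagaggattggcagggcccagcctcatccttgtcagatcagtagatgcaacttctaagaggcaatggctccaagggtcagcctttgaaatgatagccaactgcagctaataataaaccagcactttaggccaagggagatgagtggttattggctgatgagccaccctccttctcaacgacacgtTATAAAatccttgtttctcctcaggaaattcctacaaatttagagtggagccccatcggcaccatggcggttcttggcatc
Cyp2a4: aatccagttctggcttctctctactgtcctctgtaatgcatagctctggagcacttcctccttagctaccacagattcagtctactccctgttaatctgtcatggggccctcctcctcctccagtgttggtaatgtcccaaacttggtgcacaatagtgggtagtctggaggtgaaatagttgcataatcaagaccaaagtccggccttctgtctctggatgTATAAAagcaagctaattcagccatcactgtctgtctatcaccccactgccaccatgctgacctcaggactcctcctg
Cyp2a5: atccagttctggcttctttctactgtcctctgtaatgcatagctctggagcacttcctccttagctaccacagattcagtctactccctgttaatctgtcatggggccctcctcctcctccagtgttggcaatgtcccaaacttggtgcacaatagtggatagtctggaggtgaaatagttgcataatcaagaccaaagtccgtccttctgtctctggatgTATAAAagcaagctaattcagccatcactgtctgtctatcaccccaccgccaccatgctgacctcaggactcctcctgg
Cyp2d9: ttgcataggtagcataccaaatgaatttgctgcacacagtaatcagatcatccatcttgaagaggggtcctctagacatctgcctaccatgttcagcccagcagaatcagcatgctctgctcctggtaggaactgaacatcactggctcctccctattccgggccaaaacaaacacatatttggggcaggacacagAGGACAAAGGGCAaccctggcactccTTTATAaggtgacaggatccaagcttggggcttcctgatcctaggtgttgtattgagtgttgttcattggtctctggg

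The TATA box letters start 31 bases before the start of Cyp2e1, 28 before that of Cyp2a4 and 29 before that of Cyp2a5, and on the minus strand 28 before that of Cyp2d9. The Cyp2a4 and Cyp2a5 windows aligned with 294 identical bases, 5 mismatches and 2 gaps, an identity of 97.7%. RefSeq windows were found for 77 of the 100 P450 genes. TATAAA occurred in 6 of the 12 lower genes with a window, in 0 of 6 higher genes, in 3 of 8 genes not called and in 24 of 51 genes not tested, against 13.6% of all 32851 windows. The direct repeat occurred in 1 of the 12 lower genes with a window, Cyp2d9, 54 bases before its start. It occurred in 0 of 6 higher genes, in 0 of 8 not called and in 2 of 51 not tested, Cyp2d10 and Cyp2d40. Of all windows 0.381% held it, and the motifs do not overlap. A match describes letters and is no binding site by itself.

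Cyp1b1 (ENSMUSG00000024087), which hydroxylates oestrogens and polycyclic hydrocarbons and is known from mesenchymal cells, was the only tested gene of the families 1 to 3 that rose. It was at 3.09, 5.11, 8.81, 4.10 and 5.84 FPKM in wild type and at 7.28, 13.7, 7.56, 12.3 and 10.9 FPKM in G799R. Wild-type library 3 lay above G799R libraries 1 and 3, so the groups overlapped. Cyp1b1 was 1.92-fold higher, with a log2 difference of 0.85 ± 0.23 (SE; limma adjusted p = 0.0085), the largest log2 difference among the 6 P450 genes called higher. Under glomerular marker scaling it was 0.24 and not called (limma adjusted p = 0.37). Of 5 known aryl hydrocarbon receptor targets outside the P450 genes 3 were tested, and all 3 fell, beside 19.3% lower among all tested genes. The falls were 7.64-fold for Ugt1a6a, a conjugating enzyme, 2.46-fold for Nqo1 and 1.34-fold for Tiparp. The part of this receptor in the Cyp1b1 difference was not tested.

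The vitamin D enzymes went in different directions. Of 4 genes, all tested, Cyp24a1 and Cyp27b1 fell, Cyp27a1 rose and Cyp2r1 was not called. Cyp24a1 (ENSMUSG00000038567), which breaks down active vitamin D, was at 14.0, 10.7, 16.3, 15.5 and 12.6 FPKM in wild type and at 2.71, 0.969, 1.88, 0.959 and 0.526 FPKM in G799R. The groups were well apart. It was 9.80-fold lower, with a log2 difference of −2.68 ± 0.22 (SE; limma adjusted p = 3.5e-06). Its exons overlap those of Pfdn4 on the other strand.

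Cyp27b1, the enzyme that makes active vitamin D in the proximal tubule, was low in all libraries. It was at 0.661, 0.902, 0.493, 2.68 and 1.58 FPKM in wild type and at 0.274, 0.346, 0.149, 0.279 and 0.079 FPKM in G799R. The highest G799R library lay below the lowest wild-type library. The ratio of means was 5.60-fold lower. The log2 difference was −0.81 ± 0.22 (SE; limma adjusted p = 0.0084), and −1.91 with a pseudocount of 0.1 in place of 1.

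Cyp27a1 (ENSMUSG00000026170), the mitochondrial sterol hydroxylase that can also act on vitamin D, had the smallest log2 difference among the called P450 genes. It was at 24.1, 27.5, 26.7, 26.3 and 26.9 FPKM in wild type and at 29.1, 27.5, 30.0, 34.4 and 31.5 FPKM in G799R, and the groups touched at 27.5 without overlap. It was 1.16-fold higher, with a log2 difference of 0.20 ± 0.07 (SE; limma adjusted p = 0.023). The call was lost without G799R library 4 or 5 (limma adjusted p = 0.058 and 0.052) and under median-of-ratios scaling (log2 difference 0.032, limma adjusted p = 0.77) and quantile normalisation (log2 difference 0.10, limma adjusted p = 0.23). Under glomerular marker scaling the log2 difference was −0.47. Cyp2r1, which starts vitamin D activation in the liver, was at 0.547 ± 0.183 and 0.547 ± 0.157 FPKM (SD, n = 5 each; adjusted p = 0.99 by limma).

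Other genes of vitamin D and mineral handling were mostly lower. Of 16 tested 13 fell and 1 rose, with a median log2 difference of −1.97, beside 19.3% lower, 40.5% higher and a median of 0.17 among all tested genes. However, 4 of the 17 listed are also proximal tubule markers and 1 is a distal marker. Vdr, the vitamin D receptor, was among those that fell. Cubn and Lrp2, the receptors that take up filtered vitamin D with its carrier, were 9.55-fold and 8.02-fold lower.

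Sterol, bile acid and steroid hormone enzymes were low, and 4 of 12 were tested. Cyp51, the lanosterol demethylase of cholesterol synthesis, was at 8.51, 10.9, 10.6, 12.6 and 12.1 FPKM in wild type and at 5.64, 5.53, 8.79, 5.63 and 4.03 FPKM in G799R. Only G799R library 3 reached into the wild-type range. Cyp51 was 1.85-fold lower (log2 difference −0.81 ± 0.16 SE, limma adjusted p = 0.0012), and its exons overlap those of Akap9 on the other strand. Of 20 cholesterol synthesis genes 10 fell and 2 rose, with a median log2 difference of −0.28. Among all tested genes 19.3% were lower and 40.5% higher, with a median of 0.17.

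Cyp46a1, the cholesterol hydroxylase known from neurons, was at 1.22 to 2.34 FPKM in wild type and 2.69 to 4.05 FPKM in G799R without overlap, 1.60-fold higher (limma adjusted p = 0.0097). Its log2 difference of 0.49 became 0.0026 under glomerular marker scaling. Cyp39a1, an oxysterol hydroxylase of bile acid synthesis, was at 2.83 ± 0.563 and 1.97 ± 0.236 FPKM (SD, n = 5 each; limma adjusted p = 0.022), and its call was lost without wild-type library 5 or G799R library 2 (limma adjusted p = 0.054 and 0.052). No call was made for Cyp8b1, of bile acid synthesis, at 0.556 ± 0.231 and 0.524 ± 0.372 FPKM. Cyp7a1, the entry enzyme of that pathway, and the adrenal and gonadal steroid genes Cyp11b1, Cyp11b2 and Cyp19a1 were listed at 0 in every library. Cyp7b1, an oxysterol hydroxylase, stayed just under the limit for testing, at 0.322 to 0.649 FPKM in wild type and 0.427 to 0.552 FPKM in G799R.

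Neither of the 2 tested retinoic acid enzymes was called. Cyp26b1, which breaks down retinoic acid, was at 15.0, 8.60, 33.7, 15.8 and 41.5 FPKM in wild type and at 15.7, 36.3, 28.7, 27.8 and 40.1 FPKM in G799R. The ranges largely coincided. The log2 difference was 0.51 ± 0.38 (SE), with an adjusted p of 0.27 by limma. Cyp26a1 was at 2.77 ± 0.897 and 3.35 ± 0.792 FPKM (SD, n = 5 each; adjusted p = 0.29 by limma), and Cyp26c1 was near 0. Among 9 tested genes of retinoid handling 4 rose and 2 fell, with a median log2 difference of 0.22, close to all tested genes with 40.5% higher, 19.3% lower and a median of 0.17. Aldh1a2, which makes retinoic acid, was 2.39-fold higher, while Aldh1a1, which shares that activity, was 6.07-fold lower.

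Of the remaining P450 genes, Cyp20a1, whose substrate is unknown, rose from 22.0 ± 3.17 to 29.8 ± 4.22 FPKM (SD, n = 5 each; limma adjusted p = 0.0097), with overlapping groups. Its log2 difference of 0.42 became 0.25 under median-of-ratios scaling, where it was not called (limma adjusted p = 0.058), and −0.24 under glomerular marker scaling. Cyp2s1 was at 7.23 ± 1.30 and 7.58 ± 1.38 FPKM. Cyp2u1, a long-chain fatty acid hydroxylase, was at 1.61 ± 0.182 and 1.55 ± 0.509 FPKM, and neither gene was called. Cyp2ab1 was under the limit for testing, at 0.034 to 0.314 FPKM in wild type and 0.283 to 0.595 FPKM in G799R, and Cyp2w1 was listed at 0 in every library.

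**Figure D4:**
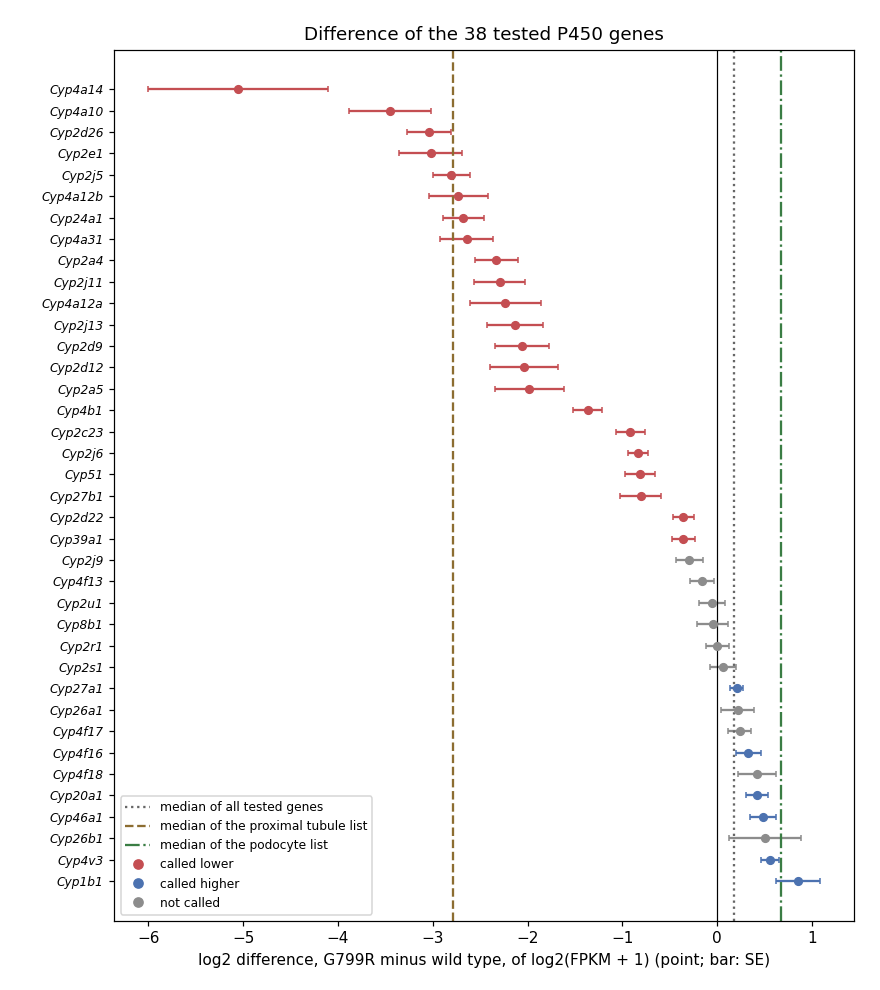
Log2 difference on the log2(FPKM + 1) scale, G799R minus wild type (x axis; point, with its SE as a bar), for the 38 tested P450 genes (y axis), coloured by call. Lines mark the medians of all tested genes (0.17), of the proximal tubule list (−2.79) and of the podocyte list (0.68). Most Cyp4a genes, Cyp2e1, Cyp2d26, Cyp2j5 and Cyp24a1 lie near or beyond the proximal tubule median.

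The falls were then read relative to the proximal tubule markers, by subtracting each library's proximal tubule score from its log2(FPKM + 1) values. That score averaged 6.95 ± 0.31 over wild-type and 4.29 ± 0.40 over G799R libraries (SD, n = 5 each; exact two-sided permutation p = 0.0079, the smallest that 5 against 5 libraries allow). Relative to it, 2 P450 genes were lower and 26 higher by limma, against 0.13% and 97.7% of all tested genes (97.8% in either direction). The 26 include genes near 1 FPKM, which cannot fall far on this scale. Cyp2c23 and Cyp27b1 were 7.90-fold and 5.60-fold lower by mean FPKM, yet stood at 1.75 and 1.85 relative to the score. The 2 lower genes were Cyp4a14, at −2.39, and Cyp4a10, at −0.79. Both rest on how the spread was estimated: with each gene's own variance instead of limma's moderated one, an alternative chosen after the data were seen, Cyp4a14 had an adjusted p of 0.058 and Cyp4a10 of 0.16. Exact two-sided permutation tests, not adjusted, gave p = 0.063 for Cyp4a14 and p = 0.17 for Cyp4a10, and wild-type library 1 lay within or below the G799R values for both. Without that library the relative difference of Cyp4a14 was −3.40.

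For the other P450 genes with large falls the relative differences were smaller. The relative log2 difference was −0.02 for Cyp24a1, 0.02 for Cyp4a31, −0.07 for Cyp4a12b, −0.14 for Cyp2j5, −0.36 for Cyp2e1 and −0.38 for Cyp2d26. The groups overlapped for all 6 of these genes. None was called by limma, with SEs from 0.27 to 0.29 and adjusted p-values from 0.17 for Cyp2d26 to 0.95 for Cyp24a1, which does not show equal change. Cyp4a12b and Cyp24a1 had G799R means of 0.671 and 1.41 FPKM, where this scale understates a fall. With a pseudocount of 0.1 in place of 1, limma called Cyp4a12b lower relative to the score, beside Cyp4a14 and Cyp4a10. With each gene's own variance Cyp2j5 was the 1 P450 gene called lower. Cyp2j5 lay close to the score, with relative values that had an SD of 0.019 among wild-type and 0.13 among G799R libraries. Cyp4b1 fell by less than the markers, with a relative log2 difference of 1.30 ± 0.29 (SE; limma adjusted p = 7.8e-06) and no overlap between groups. The same held for Cyp2j6 (1.83), Cyp51 (1.85) and Cyp27b1 (1.85), although values near 1 FPKM cannot fall far on this scale. Relative to the glomerular score, the mean of the podocyte, endothelial and mesangial markers, which was higher by 0.67 in G799R, 30 P450 genes were lower and 0 higher by limma, against 72.1% and 2.82% of all tested genes (74.9% in either direction). At an unadjusted p under 0.05 the number was 32.

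**Figure D5:**
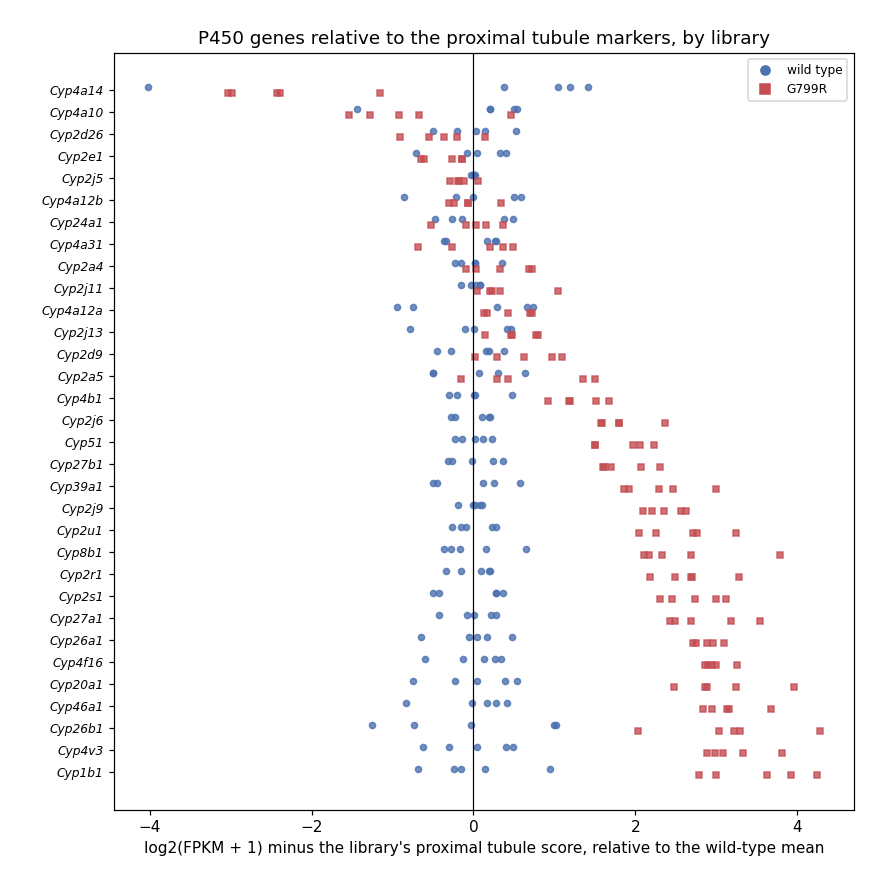
Log2(FPKM + 1) minus the proximal tubule score of the same library, set relative to the wild-type mean (x axis), for each tested P450 gene that the naming rule took (y axis), blue circles for wild-type and red squares for G799R libraries. From Cyp4a14 to Cyp2a5 the groups overlap, and from Cyp4b1 downwards every G799R library lies to the right of every wild-type library. Wild-type library 1 is the point at the far left for Cyp4a14.

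Genes that work with P450 enzymes were mixed, and their counts stand beside 19.3% lower and 40.5% higher among all tested genes. Of 10 tested genes of electron supply 5 fell and 3 rose, with a median log2 difference of −0.21. Por, the reductase that feeds P450 enzymes of the endoplasmic reticulum, went from 70.2 ± 11.8 to 26.3 ± 4.09 FPKM (SD, n = 5 each), 2.66-fold lower. Fdx1, the ferredoxin that serves the mitochondrial enzymes Cyp27a1, Cyp27b1 and Cyp24a1, was 1.97-fold lower, and Cyb5b, a cytochrome b5, 1.93-fold lower. Their limma adjusted p-values were 8.1e-06, 2.4e-05 and 4.3e-06.

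Of 7 tested genes that handle P450 products 3 fell and 2 rose. Ephx2, the soluble hydrolase that breaks down the epoxides made by Cyp2j and Cyp2c enzymes, was at 63.4 ± 17.0 and 14.0 ± 3.07 FPKM (SD, n = 5 each), 4.52-fold lower (limma adjusted p = 6.5e-06). Of 13 heme synthesis and breakdown genes 6 fell and 0 rose by limma, with a median log2 difference of −0.15. Alas1, the entry step of heme synthesis, was 2.60-fold lower.

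Of 26 tested regulators of P450 genes 11 fell and 7 rose, with a median log2 difference of −0.07. Hnf4a, a nuclear receptor of tubule and liver cells that is also on the proximal tubule list, was 7.56-fold lower at 9.47 ± 3.17 FPKM, and Ppara, which encodes PPAR alpha, 4.86-fold lower at 1.76 ± 0.338 FPKM (SD, n = 5 each). Of 27 tested PPAR alpha targets outside the P450 genes 20 fell and 3 rose, with a median log2 difference of −0.71. Among them Acaa1b and Ehhadh, enzymes of peroxisomal fatty acid oxidation, were 8.68-fold and 4.70-fold lower. Proximal tubule markers were lower in the same G799R libraries, as given above, and their part in these differences was not tested.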

How the data were processed

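The authors deposited 1 table of FPKM values, with 10 libraries as columns. The submitters' processing notes list HISAT2, Bowtie2 2.2.8, RSEM, StringTie 1.3.1 and fastp 0.18.0 without role or order. The sources used here do not state the build or annotation. Columns were matched to libraries through their labels, with 0 columns of other samples, and 21963 identifiers had a symbol. Positions and shared 100-base windows came from GENCODE M21 (GRCm38) and promoters from RefSeq.

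Values were tested as log2(FPKM + 1) by the two-sided limma-trend test of limma 3.58.1, run in R 4.3.3, over the 13117 genes whose mean reached 0.5 FPKM. P-values were Benjamini-Hochberg adjusted over all of them at a threshold of 0.05. The procedure was tested on simulated data. FPKM is relative, so a larger share of RNA from one cell type lowers the values of others, and no counting interval can be given. The P450 genes, the marker and function lists and the tests were chosen with earlier results of these data known. The list counts and the permutation p of the proximal tubule score are therefore no independent support.

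The genes described were, in each role, the 5 with the highest mean, the 6 largest falls and 6 largest rises among called P450 genes, 10 set by name, and up to 3 called genes with the smallest p from each other list. Tested P450 genes outside this rule, and Vdr, Acot1, Acot3 and Angptl4, were added after their values were seen. Same-numbered libraries of the groups did not deviate together, so the numbers were not used as pairs.

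Alternatives tried were other pseudocounts (0.1, 0.5), filters (none, 2 FPKM) and scalings, the tubule covariate, a block on replicate number, and leaving out each library. The fit without moderation, and the alternatives for the glomerular score and the function lists, were added after the data were seen.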

Additional observations from a re-analysis of the deposited data

Results flagged for a closer look

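In 4 of the 64 groups of 5 libraries examined for the P450 genes named by the rule, 1 library stood apart by Dixon's test, with a gap over range above 0.71. Chance gives such a gap in about 5% of groups. Wild-type library 1 had Cyp2d26 at 24.8 FPKM, against 46.7 to 55.4 FPKM in the rest of its group. Cyp2u1 was at 1.93 FPKM in wild-type library 4, above 1.48 to 1.61 FPKM in the others. In G799R library 5, Cyp2j9 was at 0.827 FPKM, below 1.43 to 1.60 FPKM, and Cyp8b1 was at 1.18 FPKM, above 0.289 to 0.420 FPKM in the other 4.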

How the results depend on the processing

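Of 663 comparisons of a named gene's log2 difference with an alternative, 588 kept direction and side of the threshold, 38 lost the call, 4 gained it and 33 turned sign. The 22 lower P450 genes were 20 to 27 under every alternative except the tubule covariate (0), and the 6 higher were 5 or 6 except under median-of-ratios scaling (3), glomerular marker scaling (0) and the tubule covariate (0). Leaving out 1 library gave 21 to 23 lower and 5 to 6 higher. Relative to the proximal tubule score, 2 lower became 3 with a pseudocount of 0.1 (with Cyp4a12b), 1 without moderation of the spread (Cyp2j5) and 8 with the distal list. The 25 lower and 12 higher genes of electron supply, product handling, heme and regulation became 41 and 0 under glomerular marker scaling and 0 and 0 with the tubule covariate. Of all 13117 tested genes 8533 were lower and 530 higher under glomerular marker scaling, and 0 and 0 with the tubule covariate. The replicate number as a block gave 22 lower and 5 higher. Same-numbered libraries correlated at −0.0846 to 0.0484 and no wild-type library was closest to its own number. The numbers were therefore not used as pairs, although such correlations cannot exclude a paired design.

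Signs turned as follows; the cause was not tested. With the tubule covariate, where no gene was called: Cyp4a14 1.05, Cyp2j9 0.86, Cyp4a31 0.63, Cyp27b1 0.62, Cyp2j11 0.52, Cyp51 0.52, Cyp2d9 0.51, Cyp2e1 0.35, Cyp2u1 0.097, Cyp2j6 0.073, Cyp4a12b 0.015, Cyp27a1 −0.048, Cyp26b1 −0.098 and Cyp20a1 −0.48. Under glomerular marker scaling: Cyp4v3 −0.021, Cyp26b1 −0.16, Cyp20a1 −0.24, Cyp4f16 −0.25, Cyp2r1 −0.25, Cyp26a1 −0.30, Cyp27a1 −0.47 and Cyp2s1 −0.55. Under median-of-ratios scaling: Cyp2r1 −0.061 and Cyp2s1 −0.096. Under quantile normalisation: Cyp2r1 −0.0022. Leaving out 1 library gave −0.041 to 0.061 for Cyp2r1, −0.11 to 0.0065 for Cyp8b1, −0.027 to 0.15 for Cyp2s1 and −0.16 to 0.043 for Cyp2u1, none of which was called.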
